A study of Mus musculus with 20 samples.

Results

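E2F transcription factors turn on and turn off the genes that a cell needs to copy its DNA and divide. The family has 8 members in the mouse, E2f1 to E2f8, and all 8 were found by their symbols among the 55401 genes counted in the series. The members were chosen by measured values of these same libraries, because E2f8 was seen at a higher level in the knockout (KO) liver and spleen than in the wild-type (WT) ones. The KO against WT comparisons of those 2 tissues are therefore given for the members as values, and no p-value or call is read from them.

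RNA was sequenced from 5 tissues (liver, spleen, kidney, heart, and small intestine), of WT mice and of mice without functional Nsun6, the gene for an enzyme that places 5-methylcytosine in RNA. Each tissue had 2 WT and 2 KO libraries, 20 in all. The methods describe C57BL/6J fertilized eggs in which CRISPR/Cas9 removed exons 3 and 4 of Nsun6, KO mice bred from heterozygous parents, and tissues from females at an age of 8 weeks. No other allele or treatment is named for either genotype, and the number of founder animals, the number of animals, and whether the 5 tissues came from the same animals were not given in the sources used here. The study describes the 2 libraries of a group as biological replicates. The lowest total count of a library was 15897446, the median 28513950, and the highest 44508197. Levels are given as RPKM, read counts scaled by exon length and, after TMM normalization over all 20 libraries, by library size, so that genes of different length can be compared. The counts of Nsun6 itself do not check the labels well, because they cover all exons and not the deleted ones alone. Nsun6 stood between 0.877 and 1.92 RPKM in the 10 WT libraries and between 0.665 and 1.93 RPKM in the 10 KO libraries.

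The classical members bind DNA together with a DP partner, Tfdp1 or Tfdp2. In resting cells they are held by the pocket proteins Rb1, Rbl1, and Rbl2, and cyclin-dependent kinases of the G1 phase release them. E2f1, E2f2, and E2f3 are known as activators, E2f4 and E2f5 mainly as repressors that work with pocket proteins, and E2f6 as a repressor that does not bind pocket proteins. E2f7 and E2f8 are called atypical. They bind DNA without a DP partner, repress E2F target genes late in S phase, and are themselves E2F targets. In the liver they are known for their part in making hepatocytes polyploid, and E2f2 and E2f8 are both known from the maturation of red blood cell precursors, which the mouse spleen makes throughout life.

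Because E2F genes are targets of their own family, the promoters of 3 members are shown, the atypical E2f8 and E2f7 and the activator E2f2, whose mean level differed most between tissues among the activators. The sequences are from RefSeq on GRCm38.p6, run from 250 bases before to 50 bases after a start site of RefSeq, which for E2f2 lies upstream of the Ensembl start given below, and are read along the strand of the gene. Capitals mark an E2F octamer (TTTCCCGC, TTTCGCGC, TTTGCCGC, or TTTGGCGC, on either strand) or the CHR hexamer (TTTGAA, on either strand), the element known from genes of late cell cycle phases. The E2f8 promoter lies at chr7:48881547-48881846 on the minus strand, that of E2f7 at chr10:110745189-110745488 on the plus strand, and that of E2f2 at chr4:136172024-136172323 on the plus strand.
E2f8: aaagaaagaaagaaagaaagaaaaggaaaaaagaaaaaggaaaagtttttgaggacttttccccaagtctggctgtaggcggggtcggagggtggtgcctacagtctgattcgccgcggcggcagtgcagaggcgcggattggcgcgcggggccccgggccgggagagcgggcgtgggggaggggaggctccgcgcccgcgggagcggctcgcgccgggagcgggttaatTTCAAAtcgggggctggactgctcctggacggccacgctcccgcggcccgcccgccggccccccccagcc
E2f7: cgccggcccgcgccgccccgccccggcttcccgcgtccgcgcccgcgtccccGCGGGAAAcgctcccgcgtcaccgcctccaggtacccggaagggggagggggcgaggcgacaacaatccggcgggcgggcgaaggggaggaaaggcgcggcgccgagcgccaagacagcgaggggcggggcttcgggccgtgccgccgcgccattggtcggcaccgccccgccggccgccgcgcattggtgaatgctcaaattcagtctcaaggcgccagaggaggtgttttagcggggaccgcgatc
E2f2: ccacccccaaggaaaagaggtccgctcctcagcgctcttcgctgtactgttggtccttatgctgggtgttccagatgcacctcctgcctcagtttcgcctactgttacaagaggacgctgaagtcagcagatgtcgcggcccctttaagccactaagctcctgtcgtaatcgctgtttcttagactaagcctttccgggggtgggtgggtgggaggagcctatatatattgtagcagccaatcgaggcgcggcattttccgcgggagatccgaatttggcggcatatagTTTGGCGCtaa
The E2f8 window held no E2F octamer in these letters and 1 CHR hexamer, whose first base is 20 bases upstream of the start (position -20). The E2f7 window held 1 octamer from position -198 and no hexamer, and the E2f2 window 1 octamer from position 40 and no hexamer. A second E2f2 window of the table, at chr4:136180532-136180831, held a hexamer from position -31 and no octamer. Of 32851 promoter windows of this length, 2.26% held an E2F octamer and 17.9% a CHR hexamer. In all, 6 members had 8 windows in the table, of which 3 held an octamer and 3 a hexamer, and the first E2f3 window was the only one of the 8 with both. A match of letters describes the window and says nothing about binding.

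The 8 genes lie on different chromosomes. In the gene table of the counts (Ensembl release 102 of GRCm38), E2f1 (ENSMUSG00000027490) is at chr2:154559407-154569892, E2f2 (ENSMUSG00000018983) at chr4:136172394-136196057, and E2f3 (ENSMUSG00000016477) at chr13:29906575-29986063. E2f4 (ENSMUSG00000014859) is at chr8:105297663-105305370, E2f5 (ENSMUSG00000027552) at chr3:14578641-14606309, and E2f6 (ENSMUSG00000057469) at chr12:16810963-16839742. E2f7 (ENSMUSG00000020185) is at chr10:110745439-110787384 and E2f8 (ENSMUSG00000046179) at chr7:48866429-48881596. Of the 5443 exon bases of E2f8, 610 (11.2%) are shared with Gm2788 on the opposite strand, and reads from a gene and its antisense partner cannot be told apart if strand was not used in counting, which the stored command does not name. E2f5 shares 26 bases (1.46%) with Rbis and E2f7 shares 86 bases (0.955%) with 1700020G17Rik, both on the opposite strand. The other 5 members share no exon base with another gene.

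Each tissue carried the markers of its own main cell type. The summed level of 8 hepatocyte genes was between 80700 and 162000 RPKM in the liver, that of 8 cardiomyocyte genes between 22600 and 37300 in the heart, that of 8 kidney tubule genes between 23700 and 57900 in the kidney, and that of 8 enterocyte genes between 7910 and 16800 in the small intestine. In the spleen, 8 B cell genes summed to between 913 and 1440 RPKM.

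Some libraries stood apart from their group. In the small intestine, the replicates with the same number resembled each other across genotypes. The summed level of 9 crypt genes, led by Defa24, was 5570 RPKM in WT replicate 1 and 2960 in KO replicate 1, against 439 in WT replicate 2 and 706 in KO replicate 2, and the crypt is the part of the intestinal lining where cells divide. B cell genes, led by Cd79b, summed to 134 RPKM in WT replicate 1, 5.98 in WT replicate 2, 0.726 in KO replicate 1, and 27 in KO replicate 2 of this tissue, and cardiomyocyte genes, led by Myl2, to 180 RPKM in KO replicate 1 against at most 5.96 in the other 3. In the spleen, hepatocyte genes, led by Alb, summed to 1520 RPKM in WT replicate 2 and to 4.93, 56.2, and 77.2 in WT replicate 1 and KO replicates 1 and 2. In the kidney, Kap stood at 56600 RPKM in WT replicate 2 and between 21800 and 47000 in the other 3, and hepatocyte genes summed to 226 RPKM there and to at most 139 in the others. The proximal tubule transporter genes Slc5a2 and Slc34a1, in contrast, were at 16.2 and 114 RPKM in this library and at no less than 86.4 and 326 in the others. Kidney tubule genes, led by Kap, summed to 51.0 RPKM in KO replicate 1 of the spleen and to at most 0.738 in the other 3 libraries. In the liver, hepatocyte genes summed to 80700 RPKM in WT replicate 1 and to at least 141000 in the other 3, and in the heart, B cell genes summed to 14.5 RPKM in WT replicate 2 and to at most 3.02 in the other 3.

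Levels across tissues answer where the family is expressed, over both genotypes. The spleen had the highest mean level of E2f1, E2f2, E2f4, E2f7, and E2f8 (of E2f8 not in WT alone), the small intestine that of E2f3, the kidney that of E2f5, and the heart that of E2f6. All 8 members differed between the 5 tissues (edgeR quasi-likelihood test with Benjamini-Hochberg adjustment, adjusted p between 4.36e-10 for E2f6 and 0.00191 for E2f3, 4 libraries per tissue), but so did 90.2% of the 23159 genes tested, so a difference between tissues is common to most genes. In bulk tissue, fewer cells of a type and less RNA per cell cannot be told apart. The scaling matters between tissues. With TPM, which scales by the summed length-corrected counts, every gene of the liver moved by -1.21 on the log2 scale against the spleen and by -0.80 against the kidney relative to TMM, and every gene of the small intestine by 0.65 against the liver and by -0.56 against the spleen.

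**Figure D1:**
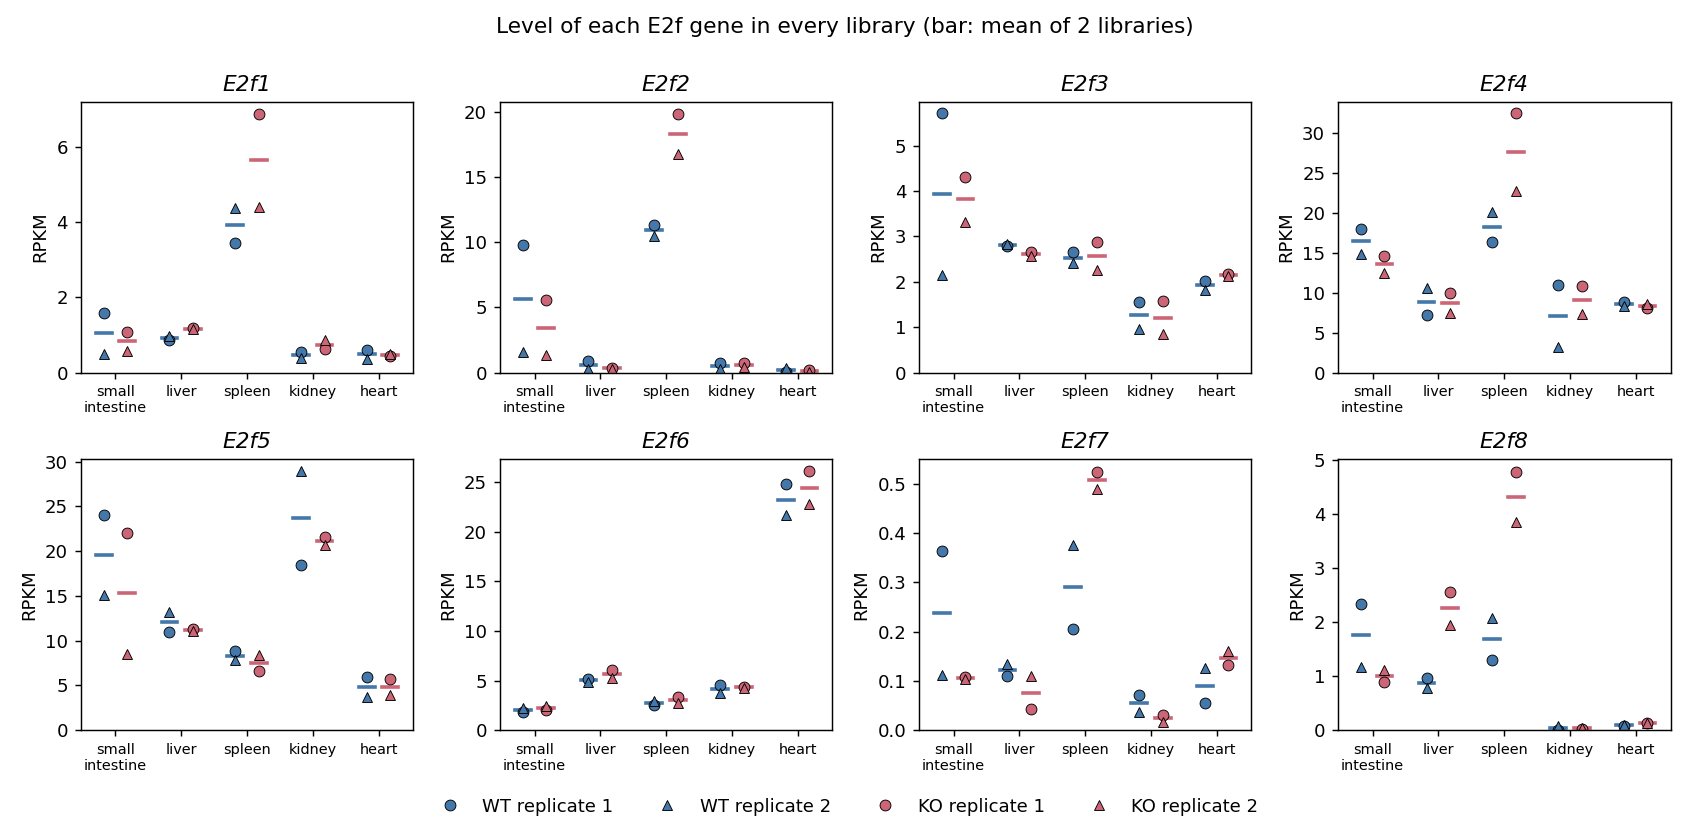
RPKM (vertical axis, linear) of each of the 8 E2f genes in the 5 tissues, with blue for WT, red for KO, circles for replicate 1, triangles for replicate 2, and a bar for the mean of 2 libraries. E2f6 is high in the heart alone, at 21.7 to 26.1 RPKM, E2f2 is highest in the 4 spleen libraries, and the KO libraries of E2f8 lie above the WT ones in the liver and the spleen.

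Among the activators, E2f2 varied most. It stood at 11.3 and 10.5 RPKM in the WT spleen and at 19.8 and 16.8 in the KO spleen, and at 9.77, 1.56, 5.58, and 1.32 in WT replicates 1 and 2 and KO replicates 1 and 2 of the small intestine. The small intestine libraries with the high crypt gene levels were the ones with the high E2f2 levels, and whether the crypt cells set this was not tested. In the other 3 tissues no library passed 0.882 RPKM, and the heart had the lowest mean of 0.151 ± 0.129 RPKM (SD, n = 4). Spleen E2f2 was higher than that of the heart by 6.55 on the log2 scale (SE 0.86, adjusted p = 2.55e-05) and than that of the small intestine by 1.66 (SE 0.68, adjusted p = 0.0538). The small intestine exceeded the kidney by 3.07 (SE 0.72, adjusted p = 0.00323), and the kidney exceeded the heart by 1.83 (SE 0.75, adjusted p = 0.0678). The liver, which lay between these 2, did not pass against the kidney or the heart (1.51 over the heart, SE 0.76, adjusted p = 0.119).

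E2f1 had a mean of 4.79 ± 1.47 RPKM in the spleen (SD, n = 4), between 3.46 and 6.89. The next tissue was the liver with 1.05 ± 0.142, and the small intestine with 0.939 ± 0.503, the kidney with 0.606 ± 0.202, and the heart with 0.469 ± 0.104 followed. The spleen differed from the liver by 2.16 on the log2 scale (SE 0.38, adjusted p = 0.000248), and no later neighbouring pair passed an adjusted p under 0.1. E2f3, the activator with the flattest profile, ranged from 3.88 ± 1.52 RPKM in the small intestine to 1.23 ± 0.386 in the kidney. None of its 4 neighbouring pairs passed both thresholds, although the small intestine and the kidney, the ends of the order, differed by 1.69 (SE 0.31, adjusted p = 0.000419). E2f3 in the liver, 2.71 ± 0.12, lay above the spleen, 2.55 ± 0.269, with TMM and below it with TPM, where the log2 difference was -1.1.

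E2f4 or E2f5 had the highest mean level of the family in every tissue but the heart, E2f4 in the spleen and E2f5 in the small intestine, liver, and kidney. E2f4 had a mean of 22.9 ± 6.88 RPKM (SD, n = 4) in the spleen, followed by the small intestine with 15.0 ± 2.27, the liver with 8.83 ± 1.72, the heart with 8.44 ± 0.313, and the kidney with 8.10 ± 3.65, and no neighbouring pair of this order passed both thresholds. The kidney spread came from WT replicate 2 with 3.25 RPKM, against 11, 10.9, and 7.31 in WT replicate 1 and KO replicates 1 and 2. E2f5 had another order, with 22.5 ± 4.56 RPKM in the kidney, followed by the small intestine with 17.4 ± 7.04, the liver with 11.7 ± 1.05, the spleen with 7.89 ± 0.962, and the heart with 4.85 ± 1.14. Kidney E2f5 exceeded that of the spleen by 1.49 (SE 0.30, adjusted p = 0.000701) and that of the heart by 2.19 (SE 0.30, adjusted p = 4.71e-05), whereas no neighbouring pair passed both thresholds (spleen over heart 0.70, SE 0.29, adjusted p = 0.0551, under the fold threshold).

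E2f6 stood out in the heart. It reached 24.8 and 21.7 RPKM in the WT heart and 26.1 and 22.8 in the KO heart, and stayed between 1.80 and 6.07 RPKM in every library of the other 4 tissues. The heart differed from the liver, the next tissue, by 2.15 on the log2 scale (SE 0.16, adjusted p = 1.12e-07), and the small intestine, the lowest, had a log2 difference of -3.48 to the heart (SE 0.17, adjusted p = 2.75e-09). With TPM, the liver fell below the kidney for E2f6.

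In each tissue the lowest mean of the family belonged to an atypical member, E2f8 in the kidney and heart and E2f7 in the other 3 tissues. E2f7 had a mean of 0.399 ± 0.144 RPKM in the spleen, 0.172 ± 0.128 in the small intestine, 0.119 ± 0.0455 in the heart, 0.099 ± 0.0395 in the liver, and 0.0393 ± 0.0237 in the kidney (SD, n = 4). The spleen exceeded the small intestine by 1.24 on the log2 scale (SE 0.48, adjusted p = 0.041), and the liver exceeded the kidney by 1.43 (SE 0.52, adjusted p = 0.0425), and neither difference passed in the WT libraries alone. The means of E2f8 were 2.99 ± 1.59 RPKM in the spleen, 1.56 ± 0.843 in the liver, and 1.37 ± 0.656 in the small intestine, and 0.113 ± 0.0304 in the heart and 0.0356 ± 0.0298 in the kidney. In the kidney this rested on 0, 9, 4, and 7 counts in WT replicates 1 and 2 and KO replicates 1 and 2, and the limit of 3 counts that a count of 0 allows is 0.0162 RPKM in WT replicate 1. Small intestine E2f8 exceeded heart E2f8 by 3.58 on the log2 scale (SE 0.55, adjusted p = 6.56e-05), and heart E2f8 exceeded kidney E2f8 by 1.71 (SE 0.60, adjusted p = 0.0341), which became 4.35 without kidney WT replicate 2. Spleen and liver, and liver and small intestine, did not pass as neighbours. The first rank of the spleen rested on the KO libraries that chose the family, since the WT mean of the small intestine was 1.75 ± 0.834 RPKM and that of the spleen 1.68 ± 0.556 (SD, n = 2). The order of liver and small intestine turned in the WT libraries alone, where the log2 difference of liver and small intestine was -1.01, and with TPM, where it was -0.51.

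Between pairs of tissues, from 2 to 7 of the 8 members differed. Between the spleen and the kidney 7 of 8 members passed a fold change over 2 at an adjusted p under 0.1, against 50.5% of all genes tested. Between the spleen and the heart 6 passed against 52.6% of all genes, and between the small intestine and the heart 5 against 53.5%. Between the small intestine and the spleen 5 passed against 49.5%, and between the kidney and the heart 5 against 38.0%. The counts for small intestine against spleen, spleen against kidney, spleen against heart, liver against kidney, and liver against heart include E2f8. They use the KO spleen or KO liver libraries that chose the family, so nothing is read from that member there. In WT libraries alone 2 members passed for small intestine against spleen (35.5% of all genes) and 2 for kidney against heart (27.6%). There, 6 passed for spleen against kidney (40.7%), 4 for spleen against heart (42.1%), and 4 for small intestine against heart (44.2%). Between the liver and the spleen 4 passed against 52.2%, between the liver and the heart 4 against 44.5%, and between the small intestine and the kidney 4 against 45.7%. Between the liver and the kidney 3 passed against 34.7%, and between the small intestine and the liver 2 against 46.3%. In WT libraries alone 1 member passed for liver against kidney (24.6% of all genes) and 2 for liver against spleen (43.3%). With limma on TPM, 4 passed for small intestine against liver (43%) and 2 for liver against heart (41.5%). The members' shares thus lie on both sides of the share of all genes.

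In the summed RPKM of the 8 genes, the classes differed between tissues. The activators made up 34.2% to 38.3% of the family in the spleen libraries, 11.2% to 26.9% in those of the small intestine, 12.1% to 15.7% in those of the liver, 4.19% to 7.78% in those of the kidney, and 6.26% to 7.02% in those of the heart. E2f4 to E2f6 made up between 54.8% and 61.0% in the spleen and at least 92.0% in every kidney and heart library. The atypical members made up at most 7.63%, in KO replicate 1 of the liver, and at most 0.787% in any kidney or heart library.

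**Figure D2:**
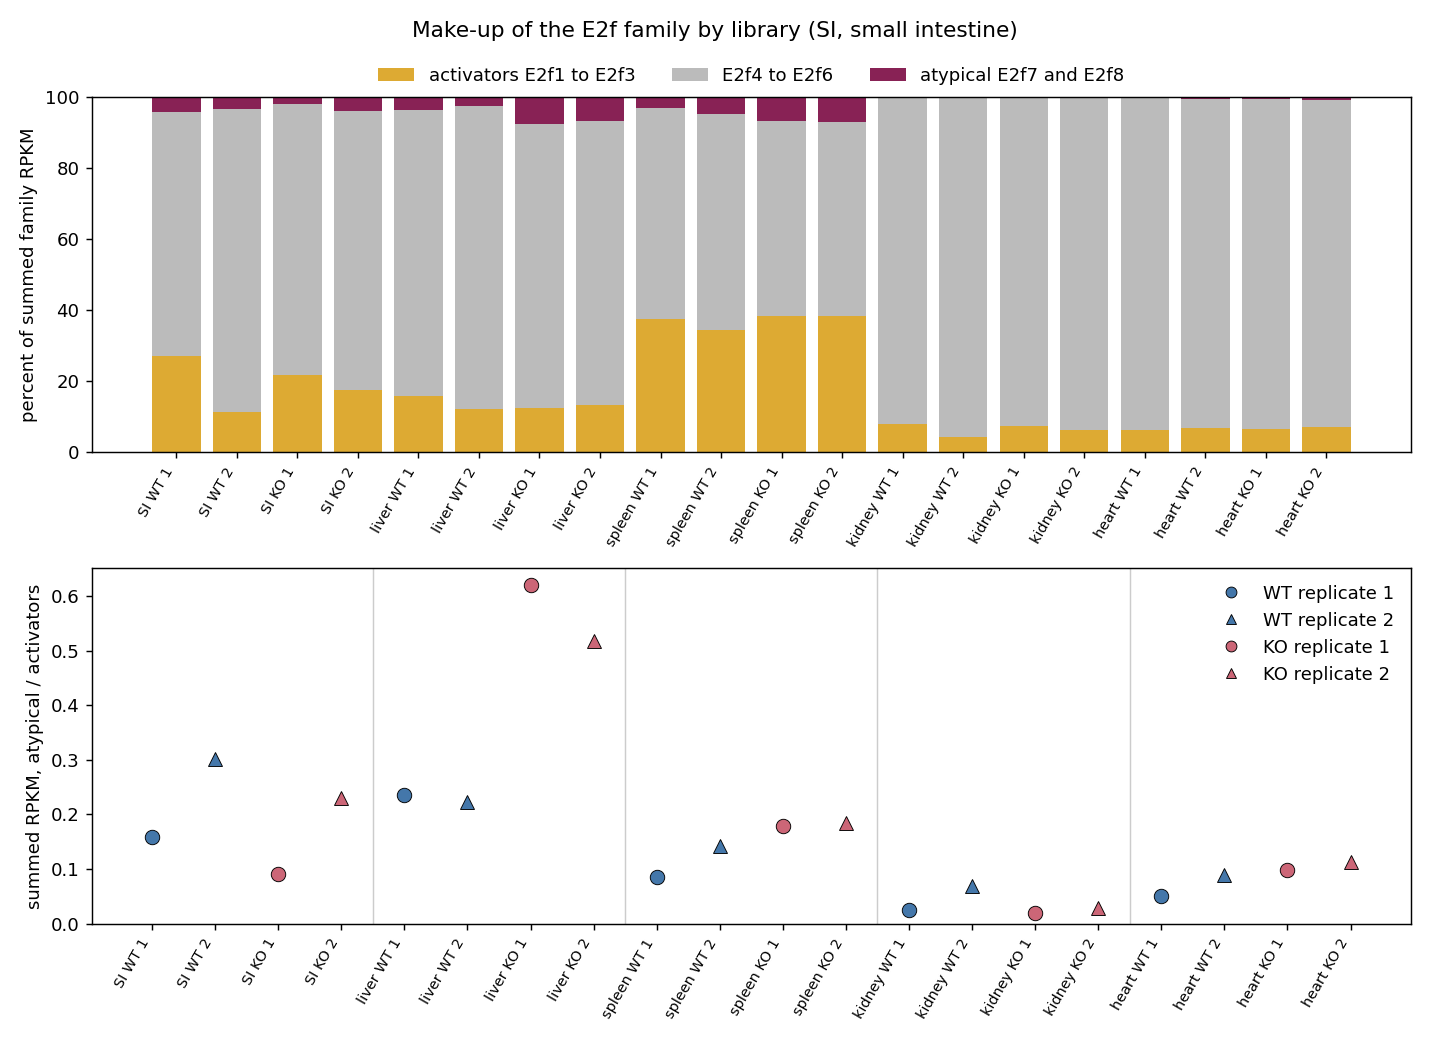
Upper panel, percent of the summed RPKM of the 8 genes (vertical axis) held by the activators, E2f4 to E2f6, and the atypical members in each of 20 libraries, named by tissue, genotype, and replicate. Lower panel, summed RPKM of E2f7 and E2f8 divided by that of E2f1 to E2f3 (linear axis) in the same libraries, which is 0.621 and 0.518 in the KO liver and 0.236 and 0.223 in the WT liver.

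KO against WT asks whether loss of Nsun6 goes with other levels of the family in each tissue. In the spleen, E2f8 had 1.29 and 2.08 RPKM in WT replicates 1 and 2 and 4.77 and 3.84 in KO replicates 1 and 2. In the liver it had 0.965 and 0.773 RPKM in WT and 2.56 and 1.95 in KO. The genotypes do not overlap in either tissue, which is what brought the family to attention and is given here as a description. Without spleen WT replicate 2, the library with hepatocyte transcripts, the spleen log2 fold change of E2f8 was 1.81, and over the libraries left out in turn it ran from 1.06 to 1.81 in the spleen and from 1.14 to 1.59 in the liver.

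Gm2788, the antisense neighbour of E2f8, moved with it in the liver and not in the spleen. The WT liver libraries held 799 and 1030 counts of it and the KO liver libraries 1852 and 1737, against 133 and 80 (WT) and 293 and 290 (KO) counts of E2f8. The spleen libraries held 20 and 61 (WT) and 13 and 12 (KO) counts of Gm2788, and 365 and 430 (WT) and 1138 and 889 (KO) counts of E2f8. The part of Gm2788 in the liver values of E2f8 was not tested.

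The other atypical member did not follow E2f8 in the liver. E2f7 had 0.110 and 0.134 RPKM in the WT liver and 0.0423 and 0.110 in the KO liver (log2 fold change -0.66, SE 0.68), so the genotypes overlapped. In the spleen E2f7 had 0.205 and 0.376 RPKM in WT and 0.525 and 0.490 in KO (0.84, SE 0.38), with both KO libraries above both WT libraries. E2f8 was 6.29 and 5.52 times as abundant as E2f7 in the WT spleen and 9.10 and 7.83 times in the KO spleen, and 8.81 and 5.76 times in the WT liver and 60.6 and 17.8 times in the KO liver.

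The summed RPKM of E2f7 and E2f8 is mostly that of E2f8, so its ratio to the activators restates the values that chose the family and is given as a description. This ratio was 0.236 and 0.223 in the WT liver and 0.621 and 0.518 in the KO liver. In the spleen it was 0.0856 and 0.142 in WT and 0.179 and 0.184 in KO. The activators of the liver moved by -0.07 on the log2 scale and its atypical members by 1.23, whereas in the spleen both moved up, by 0.60 and 1.32. E2f8 alone stood at 0.372 and 0.473 times the E2f1 level in the WT spleen and at 0.693 and 0.867 times in the KO spleen, and at 1.10 and 0.786 times in the WT liver and 2.18 and 1.70 times in the KO liver.

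Of the activators, E2f2 in the KO spleen was above WT in both libraries (values above, log2 fold change 0.79, SE 0.15). E2f1 had 3.46 and 4.39 RPKM in the WT spleen and 6.89 and 4.42 in the KO spleen (0.56, SE 0.26), so the lower KO library lay just above the higher WT library. E2f3 had 2.65 and 2.41 RPKM in WT and 2.87 and 2.26 in KO of the spleen (0.07, SE 0.20), and the genotypes overlapped. In the liver, E2f1 had 0.877 and 0.984 RPKM in WT and 1.18 and 1.15 in KO (0.33, SE 0.37), without overlap. E2f2 had 0.882 and 0.248 RPKM in the WT liver and 0.371 and 0.263 in the KO liver, and its log2 fold change of -0.83 became 0.33 without WT replicate 1, the library with the low hepatocyte gene level. E2f3 had 2.79 and 2.83 RPKM in WT and 2.65 and 2.57 in KO of the liver (-0.10, SE 0.22), with KO below WT by a margin under its error.

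Of E2f4 to E2f6, E2f4 stood at 16.3 and 20.1 RPKM in the WT spleen and at 32.5 and 22.7 in the KO spleen (0.63, SE 0.21), without overlap. E2f5 (-0.10, SE 0.21) and E2f6 (0.19, SE 0.19) overlapped between genotypes in the spleen. In the liver, E2f4 (-0.02, SE 0.27) and E2f5 (-0.11, SE 0.21) overlapped, and E2f6 had 5.16 and 4.86 RPKM in WT and 6.07 and 5.31 in KO (0.19, SE 0.19), without overlap.

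Counted over the family, 7 of 8 members had a positive log2 fold change in the spleen, with a median of 0.60, against a median of 0.01 over the 18834 genes tested, and 3 of 8 in the liver, with a median of -0.06 against 0 over 15729 genes. Both KO libraries lay above both WT libraries for 5 of 8 members in the spleen, where this held for 14.3% of all genes, and for 3 of 8 in the liver, where it held for 16.2%. Both lay below for 1 of 8 in the liver, against 16.9% of all genes. With edgeR, 0.223% of all genes of the spleen and 0.0509% of those of the liver passed both thresholds. The counts of members come from the comparisons that chose the family, and nothing is read from them.

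**Figure D3:**
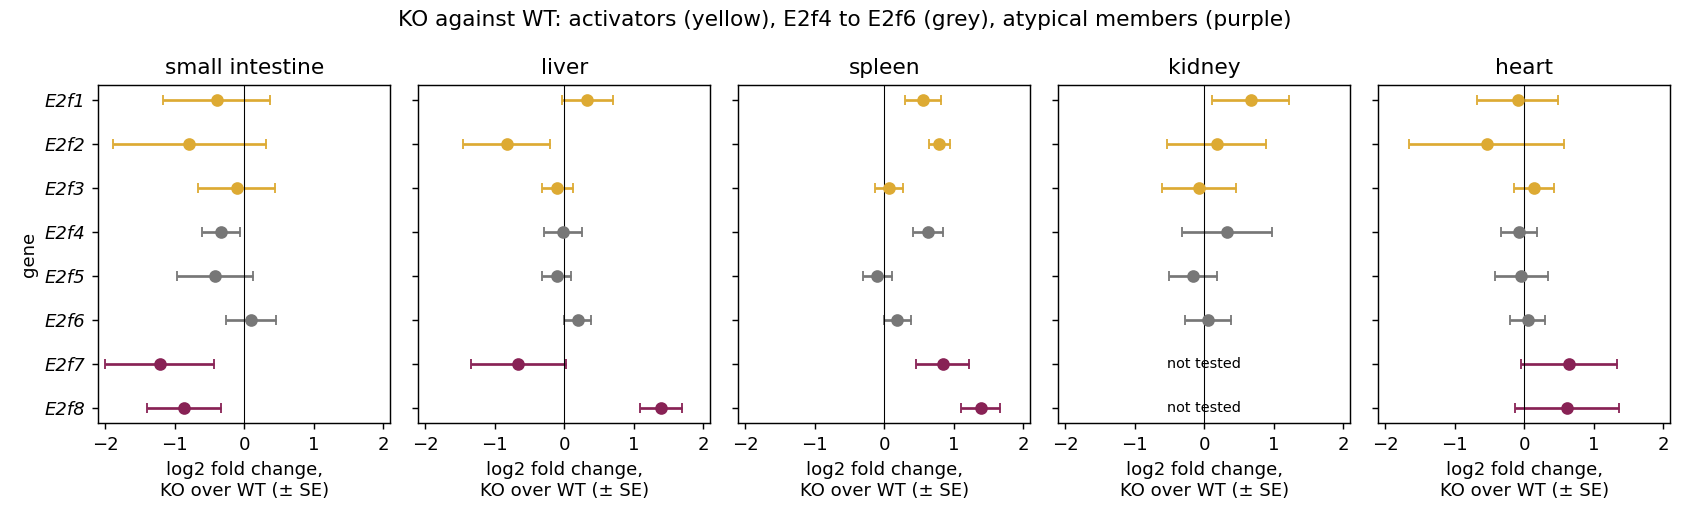
Log2 fold change of KO over WT (horizontal axis, points) with its standard error (bars) for each E2f gene in 5 tissues, 2 libraries per genotype. The standard error was derived from the F statistic of the test. E2f8 stands at 1.39 in the liver and the spleen, and E2f7 and E2f8 stand at -1.22 and -0.87 in the small intestine. Colours mark the activators (yellow), E2f4 to E2f6 (grey), and the atypical members (purple). E2f7 and E2f8 had too few counts in the kidney to be tested in the fit of that tissue.

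The small intestine, kidney, and heart were not used to choose the family and were tested. No member passed in any of the 3 tissues, and neither did any other gene (0% of 17680 genes in the small intestine, 0% of 17550 in the kidney, and 0% of 16632 in the heart, edgeR quasi-likelihood test with Benjamini-Hochberg adjustment). At an unadjusted p under 0.05, 0 of 8 members in the small intestine, 0 of 6 in the kidney, and 0 of 8 in the heart passed, against 2.39%, 0.638%, and 0.703% of all genes, and DESeq2 called 0 members in each and, over all genes, 61 in the small intestine, 2 in the heart, and 0 in the kidney. All member adjusted p-values were 1, so these data show no KO effect on the family in these tissues and cannot show that there is none.

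In the small intestine, 7 of 8 members had a negative log2 fold change. E2f8 had 2.34 and 1.16 RPKM in WT and 0.885 and 1.11 in KO (log2 fold change -0.87, SE 0.53, adjusted p = 1 in edgeR). E2f7 had 0.364 and 0.113 RPKM in WT and 0.108 and 0.104 in KO (-1.22, SE 0.79, adjusted p = 1), and only WT replicate 1 stood clearly above the others. Neither KO library reached the lower WT library for 3 of 8 members, E2f4, E2f7, and E2f8, against 9.52% of all genes. Several of these directions depended on WT replicate 1, the library with the most B cell and crypt transcripts. Without it the log2 fold change was 0.64 for E2f1, 1.07 for E2f2, and 0.77 for E2f3, while E2f8 stood at -0.27 and E2f7 at -0.14. This leaves KO replicate 1, which is also rich in crypt transcripts, without the WT library of its number. With the replicate number as a block, E2f1 was at -0.25, E2f2 at -0.58, E2f7 at -1.01, and E2f8 at -0.79, and E2f3 turned to 0.05.

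In the kidney, E2f1 had 0.552 and 0.377 RPKM in WT and 0.632 and 0.862 in KO (0.67, SE 0.55, adjusted p = 1 in edgeR), the only 1 of the 6 members tested with both KO libraries above both WT libraries, against 10.5% of all genes. E2f4 had a log2 fold change of 0.33 (SE 0.65), which was 1.5 and passed both thresholds without WT replicate 1, a fit in which 2938 genes of the kidney passed, and -0.27 without WT replicate 2. E2f8, with at most 9 counts, and E2f7 did not pass the filter on low counts in this tissue.

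In the heart, E2f8 had 0.0791 and 0.0967 RPKM in WT and 0.138 and 0.140 in KO (0.62, SE 0.75, adjusted p = 1 in edgeR), from 7, 19, 10, and 32 counts. E2f7 had 0.0546 and 0.126 RPKM in WT and 0.133 and 0.161 in KO (0.65, SE 0.69, adjusted p = 1). Together with E2f3, 3 of 8 members had both KO libraries above both WT libraries, against 8.89% of all genes. The ratio of atypical to activating members was 0.0505 and 0.0893 in WT and 0.0974 and 0.112 in KO of the heart, without overlap, and 2 libraries against 2 allow no p under 0.333 in an exact two-sided permutation test. In the other tissues that did not choose the family the genotypes overlapped, with ratios of 0.158 and 0.302 (WT) and 0.0905 and 0.231 (KO) in the small intestine and of 0.0251 and 0.0682 (WT) and 0.0199 and 0.0287 (KO) in the kidney. E2f6, at its highest level of all tissues, had a log2 fold change of 0.05 (SE 0.25). E2f2 had 0.0252, 0.318, 0.184, and 0.0782 RPKM in WT replicates 1 and 2 and KO replicates 1 and 2, and its log2 fold change of -0.54 turned to 2.24 without WT replicate 2, the heart library with B cell transcripts.

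The KO effects of these 3 tissues were also compared with each other. No member differed between the small intestine and the kidney, the small intestine and the heart, or the kidney and the heart (0%, 0%, and 0% of all genes passed, edgeR quasi-likelihood test). The lowest unadjusted p was 0.0763, for E2f7 between the small intestine and the heart, where the difference of log2 fold changes was -1.86 (SE 0.97, adjusted p = 1).

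The partners and regulators of the family, its S phase targets, and genes of the G2 and M phases were taken from 6 lists with 95 genes in all. The lists were chosen with earlier results of these data known, so their counts and p-values in the spleen and liver are not independent evidence of a direction. In the spleen, 89 of 95 had a positive log2 fold change with a median of 0.72, in the liver 52 of 90 tested with 0.09, in the small intestine 16 of 94 with -0.67, in the kidney 32 of 93 with -0.09, and in the heart 45 of 94 with -0.01. The medians over all genes tested lay between -0.03 and 0.01. In the spleen 3 of the 95 genes passed both thresholds with edgeR, all higher in KO, against 0.218% of all genes higher. This count depended on the method, with 19 for DESeq2 (219 over all genes) and 23 without a filter on low counts (313 over all genes). None passed in the other 4 tissues with edgeR or DESeq2. At an unadjusted p under 0.05 in edgeR, 55 of the 95 genes passed in the spleen (5.14% of all genes), 4 of 90 in the liver (4.70%), 1 of 94 in the heart (0.703%), 0 of 93 in the kidney (0.638%), and 0 of 94 in the small intestine (2.39%). The 3 genes of the spleen were Tfdp2, a DP partner of the E2F proteins, Mki67, the gene of the proliferation antigen Ki-67, and Cenpf, a kinetochore protein, which is named here because it is 1 of the 3, after its value was seen.

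Tfdp2 had 6.78 and 6.05 RPKM in the WT spleen and 12.7 and 14.7 in the KO spleen (log2 fold change 1.14, SE 0.17, edgeR adjusted p = 0.0969). Mki67 had 31.4 and 36.7 RPKM in WT and 88.7 and 85.7 in KO (1.40, SE 0.17, adjusted p = 0.0711), and Cenpf 1.85 and 2.29 in WT and 4.71 and 5.43 in KO (1.34, SE 0.19, adjusted p = 0.0969). The genotypes did not overlap for any of the 3. With the replicate number as a block, Mki67 and Cenpf passed and Tfdp2 did not. Without WT replicate 2, 28 of the 95 genes passed, Mki67 and Cenpf but not Tfdp2 among them, in a single fit of all 20 libraries 0 passed, and without KO replicate 1 or KO replicate 2, 0 passed.

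Among the regulators of the spleen, the pocket protein and DP partner list had a median of 0.45 and ran from Rbl2 (-0.11, SE 0.16) to Tfdp2. The subunits of the MuvB complex and its partners, which switch between repression and activation of cell cycle genes, had a median of 0.34 and ran from Lin52 (0.06, SE 0.19) to the MYB-family activator Mybl2 (1.05, SE 0.31, adjusted p = 0.505). Cyclins and kinases of G1 had a median of 0.08 and ran from Cdk6 (-0.23, SE 0.16) to the S phase cyclin Ccne2 (1.29, SE 0.54, adjusted p = 1). Kinase inhibitors had a median of 0.16 and ran from Cdkn1c (-0.27, SE 0.40) to Cdkn2c (0.84, SE 0.17, adjusted p = 0.198), a CDK4 and CDK6 inhibitor. The 40 S phase targets were all positive with a median of 0.72, from the licensing factor Cdt1 (0.11, SE 0.25) to Orc1, a subunit of the origin recognition complex (1.40, SE 0.28, adjusted p = 0.187). The 26 genes of G2 and M were all positive with a median of 1.01, from the mitotic kinase Plk1 (0.62, SE 0.29) to Mki67. With edgeR, 0 of 40 S phase targets passed both thresholds, and 2 of 26 G2 and M genes. This split depended on the method. With DESeq2, the S phase targets Rrm2, Tyms, Orc1, and Brca1 passed, and more of the G2 and M genes than with edgeR. Without WT replicate 2 the medians were 1.02 and 1.33, and without WT replicate 1 they were 0.44 and 0.74.

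In the liver, the medians of the target lists were smaller. The S phase targets had a median of 0.15, with 24 of 37 positive, from geminin (Gmnn, -0.67, SE 0.22, edgeR adjusted p = 0.948) to the GINS subunit Gins2 (0.98, SE 0.74). The G2 and M genes had a median of 0.21, with 21 of 26 positive, from Anln (-0.30, SE 0.40) to the ubiquitin-conjugating enzyme Ube2c (0.83, SE 0.56). Without KO replicate 1 the medians were -0.01 and -0.02, and without WT replicate 2 they were 0.21 and 0.65. The G2 and M genes were at low levels there, with summed RPKM of 11.5 and 18.5 in WT and 20.8 and 17 in KO for the 26 G2 and M genes, against 166 and 235 in WT and 441 and 395 in KO of the spleen. The regulators of the liver ran from Tfdp2 (-0.30, SE 0.21) to Rbl1 (-0.04, SE 0.32), from Lin52 (-0.41, SE 0.23) to Foxm1 (0.47, SE 0.62), from Ccne1 (-0.81, SE 0.51) to Ccnd1 (0.19, SE 0.27), and from Cdkn1c (-0.89, SE 0.43) to Cdkn1b (-0.28, SE 0.22), list by list. All 5 kinase inhibitors tested there were negative, with a median of -0.55, and none passed the test.

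In the small intestine, 4 of 39 S phase targets and 1 of 26 G2 and M genes had a positive log2 fold change, with medians of -0.72 and -1, which became 0.28 and 0.36 without WT replicate 1, the library with the highest crypt gene level. In the kidney, the counts were 14 of 39 and 6 of 26, with medians of -0.06 and -0.28, which became 0.36 and 0.23 without WT replicate 2. In the heart, 12 of 40 S phase targets and 21 of 26 G2 and M genes were positive, with medians of -0.15 and 0.69, the latter between 0.32 and 1.04 over libraries left out, and no gene of either list passed the test in these 3 tissues.

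**Figure D4:**
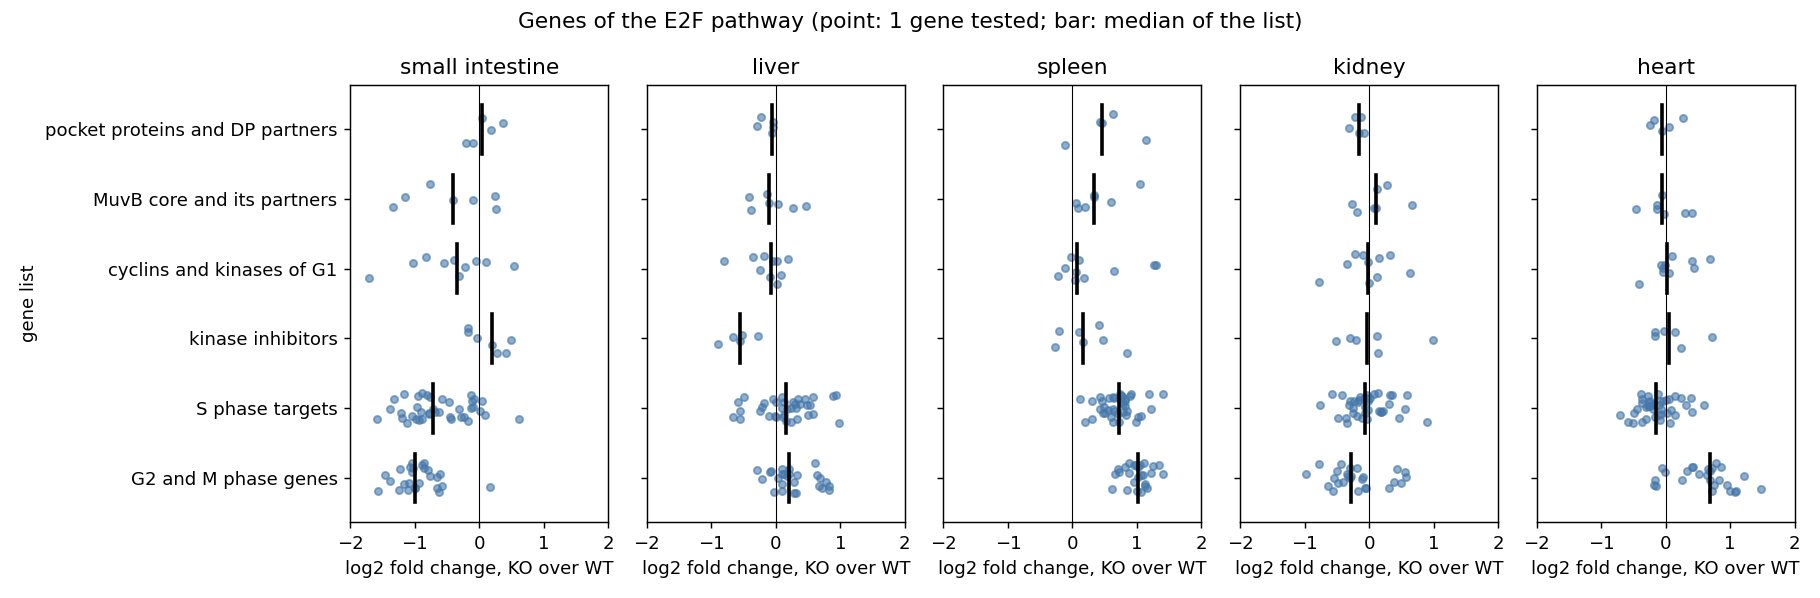
Log2 fold change of KO over WT (horizontal axis) of the genes tested from 6 lists of the E2F pathway in 5 tissues, with a point for each gene and a bar for the median of the list. The points of the S phase and G2 and M lists lie above 0 in the spleen, with medians of 0.72 and 1.01, and mostly below 0 in the small intestine, with medians of -0.72 and -1.

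Markers of red blood cell precursors moved with the spleen values. All 19 genes of the erythroid list that were tested had a positive log2 fold change in the KO spleen, with a median of 1.42. Of them, 7 passed both thresholds, against 0.218% of all genes higher. The marker lists were chosen with earlier results of these data known, so these counts are not independent evidence of a direction. In a single fit of all 20 libraries, and without KO replicate 2, 0 genes of the spleen passed. The erythroid list summed to 15600 and 21100 RPKM in the WT spleen and to 34800 and 39700 in the KO spleen, with no gene at 0. Its most abundant gene was the globin gene Hbb-bs with 6740 and 9140 RPKM in WT and 14600 and 21700 in KO. The B cell genes summed to 1440 and 1210 RPKM in WT and 1200 and 913 in KO, and the T cell genes to 385 and 222 in WT and 298 and 338 in KO. The germinal centre genes summed to 13.3 and 14.7 in WT and 13.6 and 23.3 in KO. Positive log2 fold changes were found for 1 of 8 B cell genes, 7 of 8 T cell genes, and 5 of 6 germinal centre genes. The medians were -0.16, 0.11, and 0.65, and no gene of these lists passed both thresholds. The part of erythroid precursors in the spleen values of E2f8, E2f2, and the cell cycle genes was not tested. In the liver, the erythroid list summed to 934 and 579 RPKM in WT and 881 and 570 in KO. Of this, Hbb-bs alone held 596 and 388 in WT and 587 and 394 in KO. Rhag and Kel were at 0 in all 4 liver libraries and Gata1 at 0 in 3 of them. The part of erythroid precursors in the liver values of E2f8 was not tested.

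The genes whose levels were most like those of a member over the 20 libraries were found by Pearson's r of log2 CPM among 23159 genes. The libraries share tissues, so such an r is mostly set by differences between tissues and is a description. For E2f8 they were H2-D1 (r = 0.948), Cenpw (0.938), Hpse (0.935), Zc3hav1 (0.934), and Ctsc (0.932), of which H2-D1 is a class I histocompatibility gene and Cenpw a kinetochore gene. For E2f7 they were Pcyt1b (0.886), Ccne1 (0.883), Btbd19 (0.868), Hmgb1-ps8 (0.868), and Cd44 (0.865), and for E2f1 Kcnj9 (0.955), 9430015G10Rik (0.934), Cdk2 (0.929), Atad2 (0.928), and Cnr2 (0.926). Ccne1 and Cdk2 encode the cyclin E1 and kinase pair that starts S phase. After each tissue's mean was subtracted, the genes most like E2f8 were Rgcc (0.895), Hars (0.851), Nans (0.848), Rrm1, and Kif4 (0.817). This likeness includes the KO against WT difference of the liver and spleen that chose the family.

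Among the members themselves, E2f1 and E2f2 had r = 0.80 and E2f7 and E2f8 r = 0.68 over the 20 libraries, and after each tissue's mean was subtracted 0.35 and 0.04. E2f8 within tissues had r = 0.32 with E2f1, 0.03 with E2f2, and -0.16 with E2f3. E2f6 had a negative r over the 20 libraries with each of the other 7 members, from -0.76 with E2f2 to -0.22 with E2f7.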

How the data were processed

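Poly(A) RNA of 5 tissues from mice of both genotypes was sequenced with a stranded kit. Per the labels and methods, the authors trimmed reads with cutadapt, aligned them with HISAT2 (version 2.1.0), and counted reads per gene with featureCounts (version 2.0.1) and Ensembl release 102, so the deposited values are raw counts. The methods name a reverse-stranded setting that the command stored in the table does not hold, and whether strand was used was not settled here.

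The members and gene lists were chosen with earlier results of these data known. KO and WT were compared in each tissue with edgeR (version 4.0.16; R version 4.3.3), with TMM normalization, the filterByExpr filter on low counts, and the quasi-likelihood test, and p-values were adjusted by Benjamini-Hochberg over all genes tested. A call needed a fold change over 2 at an adjusted p under 0.1. Each SE was derived as the absolute log2 value divided by the square root of the quasi-likelihood F statistic. It was not estimated apart from that value. Tissue levels, tissue pairs, and differences of KO effects were tested in fits of all 20 libraries. Each tissue's fit had 2 residual degrees of freedom, and code was tested on simulated data.

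RPKM used the summed exon length. Correlations used log2 CPM with a prior count of 2. A count of 0 was given a limit of 3 counts, and such limits cover counting error alone. Genes named beside the members were those of the 4 regulator lists that passed in a tissue, the highest and lowest log2 fold change of each of the 6 lists in the liver and the spleen, the 5 genes most like E2f8, E2f7, and E2f1, and the most abundant marker of a cell type. Cenpf, Gata1, Rhag, Kel, Nusap1, Slc5a2, Slc34a1, Rrm2, Tyms, and Brca1 were named after their values were seen. Nsun6 and the genes that overlap members were named for what they are. Alternatives were DESeq2 (version 1.42.0), RLE size factors, no filter, at least 10 counts in every library, a replicate block, a single fit of all 20 libraries, limma (version 3.58.1) on log2(TPM + 0.1) for genes with a TPM of at least 1, single genotypes for tissue levels, and each library left out. Promoter sequences came from RefSeq on GRCm38.p6.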

Additional observations from a re-analysis of the deposited data

Results flagged for a closer look

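In 2 of 40 groups of 4 libraries, 1 library stood far from the other 3 of its tissue, and chance flags about 1 group in 20. E2f5 in the liver was at 13.2 RPKM in WT replicate 2 and between 11 and 11.3 in the others, and E2f7 in the small intestine was at 0.364 RPKM in WT replicate 1 and between 0.104 and 0.113 in the others.

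Some members had both KO libraries on one side of WT in a tissue and on the other side in another tissue. Differences that involve the liver or the spleen were not tested, because these tissues chose the family. The log2 fold change of E2f3 was 0.14 in the heart and -0.10 in the liver, and that of E2f4 was 0.63 in the spleen and -0.34 in the small intestine. E2f7 was at 0.84 in the spleen and at -1.22 in the small intestine. In the kidney, where E2f7 was too low for the fit of that tissue alone, KO lay below WT in all libraries, against 0.84 in the spleen. E2f8 was at 1.39 in the liver and also at 1.39 in the spleen, and at -0.87 in the small intestine. In the heart, E2f7 (0.65) and E2f8 (0.62) had KO above WT, the other side from the small intestine and, for E2f7, from the kidney. These differences were tested, and no member passed.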

How the results depend on the processing

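A limit of every KO against WT comparison is 2 libraries per genotype and tissue. Of the alternatives, DESeq2 and no filter on low counts each called 1 member in the liver and 1 in the spleen, E2f8 in both, where edgeR called 0. These comparisons chose the family, so nothing is read from calls of members there. In the spleen the 3 pathway genes became 19 with DESeq2, 23 without a filter, 8 with at least 10 counts in every library, and 0 in a single fit of all 20 libraries. Over all genes, DESeq2 called 219 in the spleen (edgeR 42), 61 in the small intestine (0), 56 in the liver (8), and 2 in the heart (0). Without a filter 122 genes were called in the liver, 313 in the spleen, and 13 in the heart, with at least 10 counts 105 in the spleen, and in a single fit 0 in the liver and 0 in the spleen. The causes were not tested.

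Leaving out each library in turn, members called ran from 0 to 1 in the liver (1 without WT replicate 1), the spleen (1 without WT replicate 2), and the kidney (1 without WT replicate 1, E2f4). Pathway genes called ran from 0 to 28 in the spleen, 0 to 1 in the liver (1 without WT replicate 2), and 0 to 5 in the kidney (5 without WT replicate 1). All genes called ran from 1 to 2938 in the kidney, 0 to 371 in the spleen, 2 to 205 in the liver, and 0 to 22 in the heart, where the lone library is assumed to vary like the others.

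Directions that turned had log2 fold changes with these ranges. In the small intestine they were -1.02 to 0.64 for E2f1, -2.12 to 1.07 for E2f2, -0.66 to 0.77 for E2f3, -1.21 to 0.05 for E2f5, and -0.12 to 0.26 for E2f6. In the kidney they were -0.40 to 1.26 for E2f2, -0.58 to 0.35 for E2f3, -0.27 to 1.5 for E2f4, -0.43 to 0.20 for E2f5, and -0.08 to 0.21 for E2f6. In the heart they were -0.44 to 0.36 for E2f1, -1.32 to 2.24 for E2f2, -0.12 to 0 for E2f4, -0.35 to 0.37 for E2f5, and -0.06 to 0.19 for E2f6. In the liver they were -1.45 to 0.33 for E2f2, -0.30 to 0.32 for E2f4, and -0.26 to 0.06 for E2f5, and in the spleen -0.11 to 0.20 for E2f3 and -0.31 to 0.06 for E2f5.

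Between tissues, WT libraries alone gave 2 members called for small intestine against spleen (35.5% of all genes), 2 for liver against spleen (43.3%), 1 for liver against kidney (24.6%), and 2 for kidney against heart (27.6%), and limma on TPM gave 4 for small intestine against liver (43% of all genes) and 2 for liver against heart (41.5%). Over libraries left out the counts ran from 2 to 5 for small intestine against spleen, 1 to 4 for liver against kidney, and 3 to 5 for kidney against heart. In WT alone the order turned for E2f1 in liver and small intestine (-0.17) and in kidney and heart (-0.04), for E2f2 in kidney and liver (-0.18), for E2f7 in heart and liver (-0.41), and for E2f8 in liver and small intestine (-1.01). In KO alone it turned for E2f4 in heart and kidney (-0.12) and for E2f7 in small intestine and heart (-0.46). With TPM it turned for E2f1 in liver and small intestine (-0.34), E2f3 in liver and spleen (-1.1), E2f4 in liver and heart (-0.55), E2f5 in liver and spleen (-0.64), E2f6 in liver and kidney (-0.46), and E2f8 in liver and small intestine (-0.51). Over libraries left out, turned tissue differences ran from -0.19 to 0.68 for E2f1 in liver and small intestine, -0.19 to 0.90 for E2f2 in kidney and liver, -0.29 to 0.64 for E2f4 in heart and kidney, -0.08 to 0.98 for E2f7 in small intestine and heart, -0.21 to 0.61 for E2f7 in heart and liver, and -0.18 to 0.38 for E2f8 in liver and small intestine.

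The labels number replicates 1 and 2 in each group without saying what a number shares. Same-numbered deviations had r = 0.57 (small intestine), 0.37 (heart), 0.13 (kidney), 0.04 (liver), and 0.01 (spleen), with 2 pairs in each tissue. The fits without a block were kept for all tissues because no label says what a number marks, and pairing in the small intestine and heart was not settled. With the replicate block, 0 members were called in each tissue, 3 pathway genes in the spleen (Mki67, Cenpf, and Nusap1, while Tfdp2 lost its call), 20 genes in the liver, and 6 in the heart, and E2f3 in the small intestine turned to 0.05.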
